A study of Canis lupus familiaris with 6 samples.

Results

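F3 encodes tissue factor, and its RNA was followed here on 6 one-colour Agilent arrays of dog kidney epithelial cells. The gene was taken as a listed single member, by the RefSeq dog transcript printed with its array probe, and it is 1 of 1437 genes that could be named, with 1 probe (A_11_P0000020251) of 43603. The gene has the identifier 490153 in the RefSeq gene table. F3 was chosen with earlier results of these arrays known, and the values behind that choice are its differences between the arms, so these differences are given as a description and without a test.

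Tissue factor is a membrane glycoprotein that starts the extrinsic pathway of blood coagulation. It binds factor VII, and the complex activates factors IX and X and also cuts protease-activated receptors, which signal into the cell. Many epithelia carry tissue factor on their surface, and in cultured cells its transcription is known to respond to inflammatory signals through NF-kappaB and AP-1 sites.

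All 6 arrays hold RNA of MDCK-II cells, a dog kidney tubule line, that carry a hairpin RNA against scribble, a polarity scaffold protein, under a tetracycline switch; the labels name this line scribKD. The arm without tetracycline (0 µg/ml) and the arm with tetracycline (5 µg/ml, added 6 h after plating) were each sampled at 30, 45 and 60 h of culture with or without the drug, 1 array per arm and time, each from the RNA of 3 wells mixed together. Cells of both arms carry the hairpin, and no array holds tetracycline-treated cells without it, so an effect of the drug itself and of the hairpin cannot be told apart. The labels do not say whether the line is 1 clone. No condition was repeated on a second array. The limma SEs given below rest on the spread of a difference over the 3 times, moderated across all features. For a slope they rest on its departure from a line. None of them measures the spread between repeated cultures.

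Between 64.3% and 68.8% of the 43803 non-control spots of an array were well above background, and 0 were saturated. The level of SCRIB, the target of the hairpin, was not analysed here, since 0 probes could be named so. Among markers of tubule epithelium, 5 of 10 have a named probe (CDH1, KRT19, CLDN2, OCLN and TJP1), and all 5 were well above background on all 6 arrays. Of the fibroblast markers 4 of 5 with a probe were well above background on all 6 arrays and DCN on 0, of the endothelial ones KDR and VWF were above it on all 6, and the 6 leukocyte markers have 0 named probes. The log2 of the summed marker signals ran from 6.55 to 6.66 without and 6.31 to 6.46 with tetracycline for epithelium, ranges that do not overlap. That sum is led by KRT19, at 6.12 to 6.50, which like TJP1 was lower with tetracycline at each time. OCLN went the other way (differences of 0.11, 0.13 and 0.16, arms that do not overlap), CDH1 had differences of -0.01, 0.07 and 0.51, and CLDN2 0.06, -0.38 and -1.64. For fibroblasts the sum ran from 1.71 to 1.91 without and from 1.85 to 1.90 with tetracycline. COL1A2, which leads it, had differences of 0.22, -0.06 and -0.11. COL1A1 had 0.26, 0.70 and 0.82, arms that do not overlap, while those of COL1A2, PDGFRB and THY1 overlap. For endothelium the sum ran from 4.53 to 4.59 and from 4.46 to 4.62. VWF, which leads it, had differences of -0.13, 0.09 and -0.06, and KDR had -0.03, 0.29 and 0.53. The part of these markers in the differences of F3 was not tested, and fewer expressing cells and less RNA per cell cannot be told apart in bulk RNA.

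F3 was higher with tetracycline at every time, and the distance between the arms was wider at each later time. Levels are the log2 of the processed signal less the 75th percentile of the array. Without tetracycline F3 stood at 4.75 at 30 h, 4.22 at 45 h and 3.60 at 60 h. With tetracycline it stood at 5.07, 5.33 and 5.16. The 3 arrays with tetracycline all lie above the 3 without it, the lowest of the first (30 h) being 0.32 above the highest of the second (also 30 h).

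The probe is a bright one. Its processed signal was 17185, 11490 and 7162 without and 21344, 24811 and 20819 with tetracycline at 30, 45 and 60 h, against a local background of 20.5 to 23.5 on all arrays. The scanner program's own error for this spot was 10% of the signal on each array, or 0.14 on the log2 scale. The share was the same at every signal from 7162 to 24811. It is the program's figure and not a spread seen between spots of this probe. That error covers 1 spot on 1 array, and not the spread between cultures. As another measure of the spread within an array, 25 probes well above background and printed in 5 spots each had a median SD of 0.07 between their spots.

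**Figure D1:**
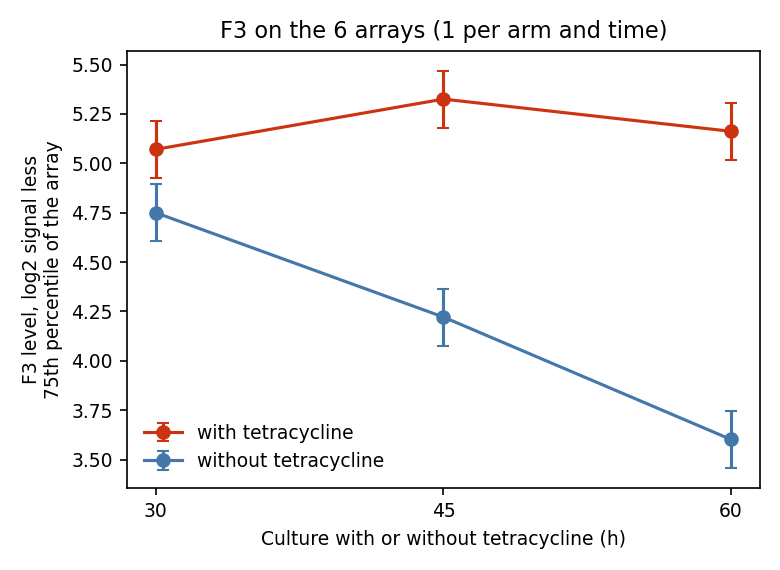
F3 level (log2 processed signal less the array's 75th percentile, vertical axis) against hours of culture with or without tetracycline (horizontal axis), 1 point per array, with bars of 0.14 for the scanner program's error of the spot. The line without tetracycline runs from 4.75 down to 3.60, and the line with tetracycline stays between 5.07 and 5.33.

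In order of level, F3 was highest with tetracycline at 45 h, then with tetracycline at 60 h and at 30 h, and then without tetracycline at 30, 45 and 60 h. Within the arm with tetracycline the neighbouring levels differ by 0.16 and 0.09, less than the scanner error of such a difference (0.20). The next steps down are 0.32, 0.53 and 0.62, each larger than that error. The 0.32 is the 30 h difference between the arms, which was part of the choice of F3. The error leaves out the spread between cultures, so it is no test of any step. The mean over the 3 times was 5.19 ± 0.13 with tetracycline and 4.19 ± 0.57 without it (SD, n = 3 times), so the spread over time was wider without the drug.

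As a fold, F3 was 1.25-fold higher with tetracycline at 30 h, 2.15-fold at 45 h and 2.95-fold at 60 h, log2 differences of 0.32, 1.104 and 1.56. The mean difference was 0.995 ± 0.63 (SD over 3 times), and limma, fitted across all features with time as a block, gave it an SE of 0.25. The difference moved by 0.62 ± 0.08 (SE) per 15 h. Leaving out the 30 h, 45 h or 60 h pair of arrays gave mean differences between 0.71 and 1.33.

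For background, 1.95% of 30002 features were at least 2-fold higher with tetracycline at 45 h and 3.05% of 29790 at 60 h, and F3 is among both. At 30 h the share was 1.83%, and F3 is not in it. Among features well above background on both arrays of a pair, 5.77% had a difference as high as that of F3 at 30 h, 0.571% at 45 h and 0.522% at 60 h. Arms that do not overlap, with all arrays of tetracycline above all others, were found in 11.9% of the 27581 features tested. Since the choice of the gene used these differences, nothing is read from its place among the features.

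**Figure D2:**
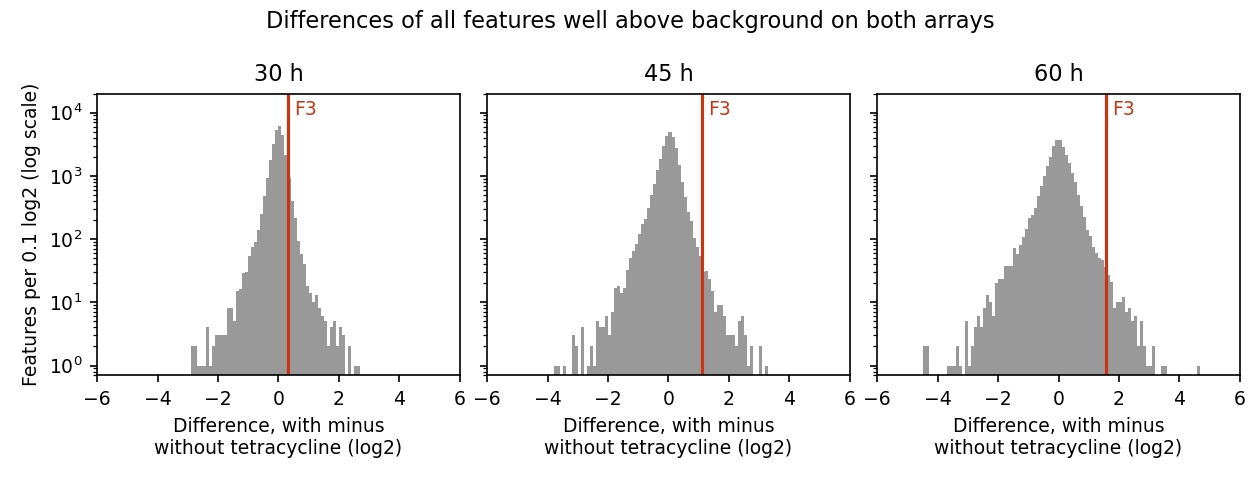
Number of features (vertical axis, log scale) by difference with minus without tetracycline (log2, horizontal axis) at 30, 45 and 60 h, for features well above background on both arrays, with the difference of F3 as a red line. The line stands at 0.32, 1.104 and 1.56, and the distribution around 0 is wider at 60 h than at 30 h.

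Read along time in place of across arms, the level moved mostly in the cells without tetracycline. There F3 was lower by 0.53 at 45 h and by 1.15 at 60 h than at 30 h, a 2.22-fold lower level at 60 h. With tetracycline the level at 45 h was 0.25 above and at 60 h 0.09 above that at 30 h. Of 29683 features, 2.60% were at least 2-fold lower at 60 h than at 30 h without tetracycline, and F3 is among these. With tetracycline 2.78% of 29137 features were, and F3 is not among them.

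Over both arms together, the contrast of 60 h with 30 h was not what F3 was chosen on, though it comes from the same arrays. F3 stood at -0.53 ± 0.31 (SE, 2 arms per time), with an adjusted p of 0.314 (limma, Benjamini-Hochberg over all features), and so did not pass the threshold of 0.05 that 8.15% of features passed. It was lower at 60 h without tetracycline and within the scanner error of its 30 h level with it. Both 30 h arrays lie on slide 1 and both 60 h arrays on slide 2, while the 45 h pair spans both, so time and slide are held together in this contrast. The differences between arms were 0.32 within slide 1 (30 h), 1.56 within slide 2 (60 h) and 1.104 across the slides (45 h).

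Among the coagulation factors with a measured probe, differences between the arms were smaller than those of F3 at 45 and 60 h. F7, the factor VII that tissue factor binds, was well above background on all 6 arrays, at -3.62, -3.60 and -3.50 without and -3.74, -3.62 and -3.97 with tetracycline. The differences of F7 were -0.11, -0.01 and -0.47, opposite in sign to those of F3, and its arms overlap (mean difference -0.20 ± 0.11, SE; adjusted p = 0.352, limma). VWF, von Willebrand factor, which carries factor VIII and binds platelets, had differences of -0.13, 0.09 and -0.06. KLKB1, plasma prekallikrein of the contact pathway, had -0.01, 0.19 and 0.11. F9, the factor IX that the complex activates, was well above background in both arms at 45 and 60 h only, 1.62-fold and 1.27-fold higher with tetracycline, on 1 of its 2 probes. F8 and F11 were not well above background on any array.

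Inhibitors of the pathway are measured in part. TFPI, the inhibitor of the tissue factor complex, has 2 probes, and neither was well above background on any array. PROC, protein C, was not above it either. Its receptor PROCR had differences of 0.13, -0.08 and 0.42, and THBD, thrombomodulin, the thrombin receptor that turns on protein C, 0.01, 0.06 and 0.12 on its bright probe. ANXA5, which covers the phosphatidylserine that coagulation complexes need, stood at 4.11, 3.97 and 4.01 without and 4.14, 4.20 and 4.41 with tetracycline. Its arms do not overlap, and its differences were 0.03, 0.23 and 0.41.

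F2RL1 encodes PAR2, the receptor cut by the complex of tissue factor and factor VIIa, and is the 1 protease-activated receptor with a named probe of 4. It stood at -3.28, -3.12 and -3.28 without tetracycline and at -2.69, -2.37 and -2.76 with it. All arrays with tetracycline lie above all without it, and the gene was 1.51-, 1.69- and 1.43-fold higher with the drug at 30, 45 and 60 h. The mean difference was 0.62 ± 0.08 (SE, 3 pairs of arrays, higher in 3 of 3), with an adjusted p of 0.108 (limma), the smallest value of any feature, which others share, but above 0.05. The difference of F2RL1 moved by -0.04 ± 0.09 (SE) per 15 h, beside 0.62 for F3; the 2 slopes were not tested against each other. With another background correction (normexp) the mean difference was 0.40.

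Of the fibrinolysis genes, PLAU, the urokinase that activates plasminogen, had its widest difference between the arms at 60 h. On its brighter probe it stood at -1.86, -2.22 and -2.78 without and -1.999, -1.53 and -0.16 with tetracycline. The arms of PLAU overlap through the 30 h arrays. Its differences were -0.14, 0.68 and 2.63, a 6.18-fold higher level at 60 h, and its other probe gave 0.08, 0.63 and 2.68. The mean difference was 1.06 ± 0.56 (SE; adjusted p = 0.325, limma), 0.27 without the 60 h pair and 1.66 without the 30 h pair.

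Like F3, PLAU was lower at later times without the drug, by 0.93 at 60 h against 30 h, but unlike F3 it was higher by 1.84 with it. The slope of PLAU was 1.38 ± 0.18 per 15 h with an adjusted p of 0.114 (limma). ANXA2, annexin A2, a surface receptor for plasminogen and its activator, had differences of -0.10, 0.02 and 0.35. MMP9, a gelatinase that plasmin can activate, was 2.60-, 8.71- and 4.25-fold lower with tetracycline (mean difference -2.20 ± 0.35, SE; adjusted p = 0.114, limma; -1.25 with normexp). Another of its 4 probes, also well above background on all 6 arrays, gave 2.42-, 10.4- and 2.61-fold. The remaining MMP9 probes were above background on 1 and 0 arrays, and the mean over all 4 gave a mean difference of -1.06. PLG, plasminogen, was well above background on 1 of 6 arrays with 1 of its 3 probes.

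Over the coagulation, anticoagulant, receptor and fibrinolysis lists, 16 of 45 genes other than F3 have a named probe and 10 could be tested. Of these 10, 3 were higher at all 3 times (THBD, ANXA5 and F2RL1) and 2 were lower (F7 and MMP9), where 28.0% and 21.5% of all features were. The median of their mean differences was 0.09, beside 0.01 over all features. None of the 10 passed an adjusted p of 0.05 between the arms, for the slope or from 30 h to 60 h, with limma, beside 0%, 0% and 8.15% of all features. At an unadjusted p under 0.05 stood F2RL1 and MMP9 between the arms, where 23.3% of all features did, and 2 genes, PLAU and ANXA2, for the slope, where 19.0% did; from 30 h to 60 h 0 of the 10 did.

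**Figure D3:**
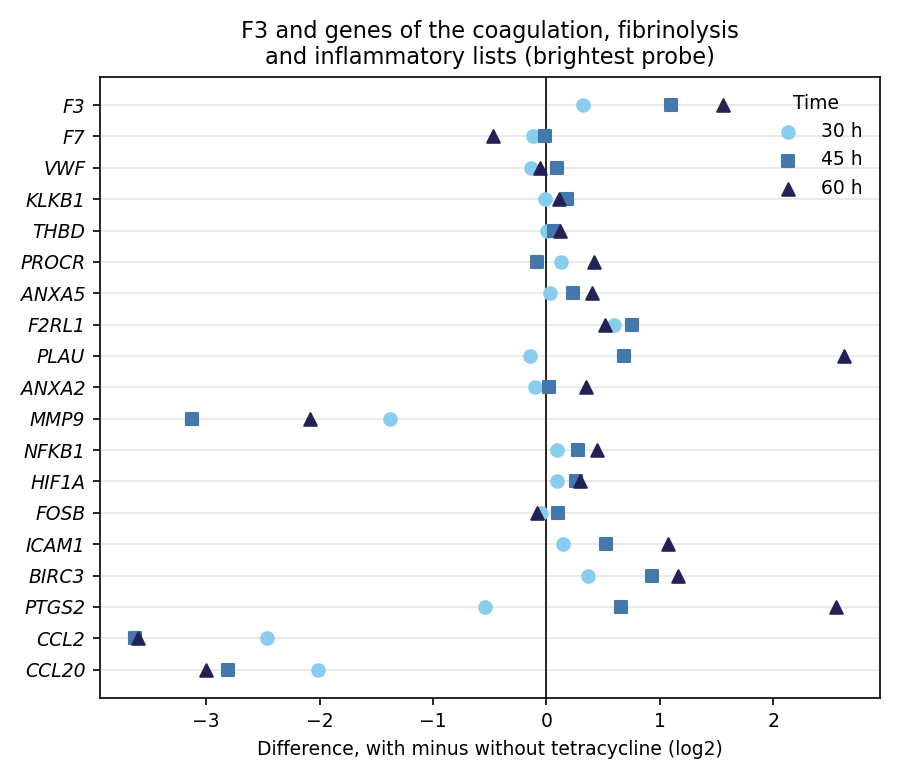
Difference with minus without tetracycline (log2, horizontal axis) at 30, 45 and 60 h for F3 and 18 other genes, 1 symbol per pair of arrays and the brightest probe of each gene. The coagulation genes F7, VWF and KLKB1 stay between -0.47 and 0.19, while F3, PLAU, ICAM1, BIRC3 and PTGS2 move to the right with time, and MMP9, CCL2 and CCL20 lie left of -1 at each time.

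In the list of factors taken to act on the F3 promoter, 3 of 19 have a named probe. Their binding to that promoter was not measured here. NFKB1, the p105 and p50 subunit gene of NF-kappaB, stood at 2.13, 2.23 and 2.32 without and 2.23, 2.51 and 2.77 with tetracycline, differences of 0.10, 0.27 and 0.45. Its second probe gave 0.05, 0.31 and 0.72. HIF1A, the hypoxia-inducible factor, had differences of 0.09, 0.26 and 0.29, with all 3 of its probes higher at each time. FOSB, an AP-1 subunit, had differences of -0.05, 0.10 and -0.08.

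Of all features, 23.3% had an unadjusted p under 0.05 between the arms (limma) and 28.0% were higher at all 3 times. NFKB1 and HIF1A had unadjusted p-values of 0.0397 and 0.0451 between the arms and adjusted ones of 0.198 and 0.207 (limma). Both were higher in 3 of 3 pairs. Unlike F3, both were higher at 60 h than at 30 h in each arm. The change was 0.36 ± 0.11 for NFKB1 (adjusted p = 0.119, limma) and 0.50 ± 0.09 for HIF1A (adjusted p = 0.0526, limma). The median difference of the 3 factors was 0.21, beside 0.01 over all features.

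Genes that inflammatory cytokines induce, as they do F3, went both ways. Of 13 in the list, 12 have a named probe and 8 could be tested. Of these, 2 were higher at all 3 times and 2 lower, where 28.0% and 21.5% of all features were. The 8 include CXCL8 and SELE, whose probes are near background. The median difference of the 8 was -0.01, beside 0.01 over all features. Among genes of the list above background on all 6 arrays it was 0.25. The 2 that were higher are ICAM1, an adhesion receptor for leukocytes, and BIRC3, an inhibitor of apoptosis. The chemokines CCL2 and CCL20 were lower at each time (mean differences -3.23 and -2.61, adjusted p = 0.108 for both with limma). PTGS2, the prostaglandin synthase COX-2, was lower at 30 h and higher later (-0.54, 0.66 and 2.55).

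TNF had differences of -0.23, 0.11 and -0.13 on its bright probe. IL1A, IL1B, IL6 and VCAM1 were not well above background on any array. None of the 8 passed an adjusted p of 0.05 (limma) and 4 had an unadjusted p under 0.05 between the arms, where 23.3% of all features did. For the slope, 3 of the 8 with a rising difference and 3 with a falling one had an unadjusted p under 0.05. Of all features 19.0% did. Taking all lists together, the arms of 4 of 21 tested genes do not overlap with tetracycline above (ANXA5, F2RL1, ICAM1 and BIRC3). The arms of 3 do not overlap with it below (MMP9, CCL2 and CCL20). The share of all features was 11.9% above and 10.2% below. The lists of YAP and TEAD targets and of class II cytokine receptors, the structural relatives of tissue factor, have 0 named probes of 12 and 11 genes.

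The pattern of F3 over the 6 arrays was set against 144 named genes that were well above background on all 6 and ranged over at least 1 log2 unit. Pearson's r over the 6 arrays is used as a measure of likeness with no p, since all genes share these arrays. Of the 144 genes 4.86% had an r of at least 0.9 and 16.0% one of -0.9 or lower, and the median was -0.47. The most like F3 were TIMP3 (r = 0.99), an inhibitor of metalloproteinases, and ICAM1 (0.98). Next came CCND1 (0.97), the cyclin D1 of the passage through G1, and UBE2V1 (0.96), a cofactor in making the ubiquitin chains of NF-kappaB signalling. BIRC3 (0.94), the small GTPase NRAS (0.93) and the NAD hydrolase CD38 (0.87) followed.

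ICAM1 repeated the shape of F3 on both of its probes. The brighter stood at 3.33, 3.01 and 2.40 without and 3.48, 3.53 and 3.48 with tetracycline, and the other at -1.48, -1.73 and -2.22 against -1.15, -1.19 and -1.14. On both, as for F3, the level was lower at each later time without the drug, and the arms do not overlap. ICAM1 was 1.11-, 1.44- and 2.11-fold higher with tetracycline on the brighter probe (mean difference 0.58 ± 0.19, SE; adjusted p = 0.190, limma; 0.34 without the 60 h pair).

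TIMP3 stood at -1.78, -2.09 and -2.45 without and -1.49, -1.29 and -1.59 with tetracycline. As with F3, its highest level was that with tetracycline at 45 h. Of the 7, CCND1 came nearest to F3 in size as well as shape, with a distance of 0.38 between the 2 centred profiles. It stood at 2.17, 1.82 and 0.85 without and 2.26, 2.45 and 2.46 with tetracycline, a difference of 0.10 at 30 h and 1.62 at 60 h.

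BIRC3 stood at -1.51, -1.78 and -1.95 without and -1.14, -0.85 and -0.79 with tetracycline on its brighter probe. On that probe it was higher with the drug at 60 h than at 30 h by 0.35, while the 0.09 of F3 is within its scanner error. The other BIRC3 probe (r = 0.77) was well above background on 4 of 6 arrays. It stood at -5.80, -5.58 and -5.73 without and -5.22, -4.74 and -4.81 with tetracycline, so it was not lower at each later time without the drug. UBE2V1 and NRAS had differences of 0.30, 0.48 and 0.82, and of 0.25, 0.55 and 0.63. CD38 is least like F3 of these 7, its level with tetracycline going from -0.51 to 0.43. All 7 were higher with tetracycline at each time, and their adjusted p for the arms lay between 0.130 and 0.229 (limma). Since the genes were picked by likeness to F3 on these same arrays, that direction largely follows from the choice. Of all features, 28.0% were higher at all 3 times.

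The 4 genes with the lowest r had the opposite pattern, as that choice requires. They are KCNJ16, a potassium channel subunit of the tubule (r = -0.99), the sulfotransferase SULT1A1 (-0.99), the lysosomal cholesterol carrier NPC2 (-0.99) and GUCY1B1, a subunit of the nitric oxide receptor guanylate cyclase (-0.99). KCNJ16 stood at -2.97, -2.54 and -1.89 without and -3.41, -3.43 and -3.34 with tetracycline. In all 4 the level was higher at each later time without the drug. With it, the level at 60 h was 0.07 above that at 30 h for KCNJ16, 0.07 below for SULT1A1, 0.18 below for NPC2 and 0.16 above for GUCY1B1.

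**Figure D4:**
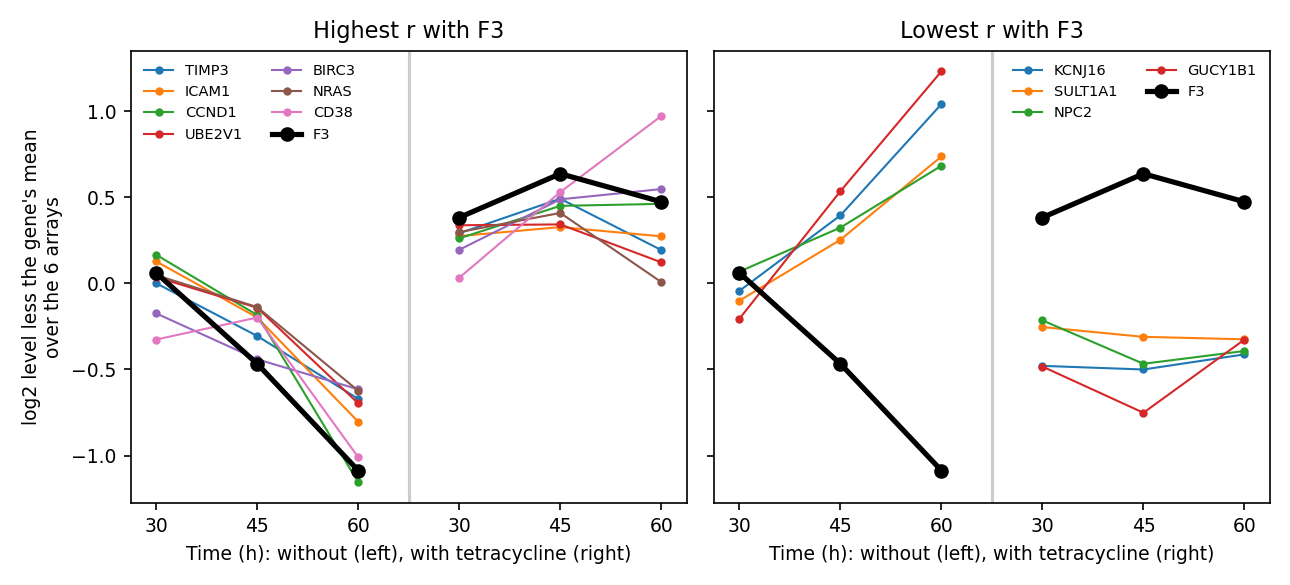
Level of each gene less its own mean over the 6 arrays (log2, vertical axis) at 30, 45 and 60 h without (left of the grey line) and with tetracycline (right), for F3 in black with 7 of the 8 genes of highest r and the 4 of lowest r. F3 and the 7 reach their lowest level without tetracycline at 60 h, and the 4 their highest.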

How the data were processed

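The values that the authors deposited per array are linear spot intensity. Per the file headers and the submitters' processing notes they come from Agilent Feature Extraction 11.5.1.1, which subtracted background and detrended each array by itself. The authors' series matrix carries the same intensity multiplied by 1 factor per array (2.30 to 2.62); no source used here says what set it. Per the file headers, the array design is of build CanFam3.1.

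Values are log2 of the processed signal less the array's 75th percentile; outlier spots were left out and the spots of a probe averaged. Genes were named through transcript accessions in a RefSeq gene table (assembly UU_Cfam_GSD_1.0; none of its coordinates were used), which gave 2326 probes 1 symbol. Tested were the 27581 features (998 named) that lay well above background throughout 1 or both arms, a gene by its brightest probe. limma 3.58.1 in R 4.3.3 was used (lmFit, eBayes, two-sided, Benjamini-Hochberg), with time as a block for the arms (2 residual degrees of freedom), arm by linear time for the slope (1), and 60 h against 30 h with arm as a term. A fold with 1 dim array is only a bound. Tests were tested on simulated data.

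F3 and the lists were chosen with earlier results of these data known. The text names F3; the members of the coagulation, anticoagulant, receptor and fibrinolysis lists; up to 5 of each other list by mean difference; and the 8 genes of highest and 4 of lowest r. Values of CXCL8 and SELE, with probes near background, and of some genes that this rule names are not reported here, and list counts leave the latter out. IL1A, IL1B, IL6, TNF and VCAM1 were named after their values were seen. Alternatives were other scalings, background correction, filters, probe rules, priors and terms, and leaving out each time. The planned normexp correction (offset 50) used the median spot signal, a choice made after seeing the files.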

Additional observations from a re-analysis of the deposited data

Results flagged for a closer look

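The 28 genes examined here were F3, members of its lists and the genes most and least like it. All were well above background on all 6 arrays. The cell type markers other than VWF, and TNF, were not among them. Of the 28, 11 had changes of opposite sign in the 2 arms, whatever their size. Levels of the 11 at 45 and 60 h both lay above that at 30 h in 1 arm and both below it in the other. COL1A1 and COL1A2, outside the 28, met this rule too. The share of all features that meet it was not worked out. Some genes were also picked by likeness to F3, so nothing is read from the count. For each of the 11, the value is the change from 30 h to 60 h with tetracycline minus that without, on the log2 scale, from 1 array per arm and time. For F3 it was 1.24, the changes being 0.09 with and -1.15 without tetracycline. The 0.09 is within the scanner error of a difference for F3 (0.20). It was 3.09 for PTGS2, 2.77 for PLAU, 1.52 for CCND1, 0.79 for BIRC3 and 0.38 for ANXA5. It was 0.12 for KLKB1 and 0.073 for VWF, the smallest in size of the 11. The scanner error was worked out for the F3 spot alone, so none is set beside them. It was -0.99 for CCL20, -0.91 for SULT1A1 and -0.79 for NPC2. With tetracycline the changes of SULT1A1 were only -0.06 at 45 h and -0.07 at 60 h. A slope of the difference over the 3 times was fitted with limma, and 0 of the 10 genes other than F3 passed, with adjusted p between 0.106 and 0.856; for F3 the difference was not tested.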

How the results depend on the processing

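The mean difference of F3 between the arms (0.995) stayed between 0.71 and 1.33 over 14 alternatives, both ends coming from leaving out 1 pair of arrays. Its differences at 30, 45 and 60 h lay between 0.27 and 0.34, 1.06 and 1.11, and 1.53 and 1.62 over 8 alternatives, and its slope between 0.59 and 0.65. Filters and probe rules could not move these values, since F3 has 1 probe, well above background on all 6 arrays. Nor could the prior or the term for time move the mean difference. The series matrix values differ by 1 factor per array, which the scaling takes out. With the slide as a term the mean difference was 0.94, the same as without the 45 h pair. Its change from 30 h to 60 h lay between -0.69 and -0.45, with adjusted p (limma) between 0.267 and 0.947. Counts of features past the threshold were less stable. For the arms the count was 0, and 126 with normexp, 17 with time left out of the fit, 16 with the trended and robust prior and 0 to 1 without 1 pair of arrays. List members among them numbered 3 (CCL2, CCL20 and MMP9), 1 (CCL20), 0 and 0 to 1 (CCL2, without the 30 h pair). For the slope the count was 0, and 191 with median scaling, 1579 with normexp, 2 among features above background on all 6 arrays and 1797 with the trended prior, with 1, 3, 0 and 5 list members; PTGS2 passed under the first, second and last, and PLAU and ICAM1 under the second and last. From 30 h to 60 h it was 2249, and 4100 with normexp, 3771 with the trended prior and 0 with no detection filter or with the slide as a term. Features 2-fold apart at 30, 45 and 60 h numbered 1018, 1494 and 2271, but 107, 215 and 596 with normexp and 217, 555 and 1222 where both arrays were above background. The fibrinolysis median was 0.09, or 0.57 with no detection filter, and the inflammatory one -0.01, or 0.25 among genes above background on all 6 arrays. Of the 8 genes most like F3, 3 were shared with no minimum range and 5 to 7 without 1 pair of arrays (5 without the 45 h pair). The bright probe of THBD gave a mean difference of 0.06, and the mean over its probes -0.09. The labels give no replicate numbers, and the 2 arms were paired by time alone, as the block of the fit. The number of arrays limits the precision.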
